A study of Mus musculus with 4 samples.

Results

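Imprinted genes are described here in mouse retinal organoids that either did or did not receive doxycycline to switch on METTL3. A list of 42 mouse genes known to be expressed mainly from the maternal or the paternal chromosome was matched by gene symbol to the expression table, and 41 of the 42 were among its 55426 rows. The missing symbol was Nespas. Its gene stands in the table under another symbol and is given with the weakly expressed genes below. Of the 41, 34 averaged 1 FPKM or more across the libraries and were tested together with all other genes at that level, 13931 in total. FPKM is a fragment count scaled to transcript length and to library size, so levels can be set side by side between genes.

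In genomic imprinting, DNA methylation laid down in the egg or the sperm marks a control region, and after fertilization the mark keeps one parental copy of the neighbouring genes silent. Imprinted genes lie in clusters in which a protein-coding gene often sits beside a noncoding RNA read from the other parental chromosome. Many of them set the growth of the embryo and placenta, and several are strongly expressed in the developing nervous system. The table sums the RNA of both parental copies, so it gives the total level of each gene and carries no information on which copy the RNA came from.

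Poly(A)-selected RNA was sequenced from organoids at day 6, aggregates of mouse pluripotent stem cells cultured towards retina in a medium with KSR, a serum replacement, and a compound abbreviated AGN. All 4 libraries share one genetic background: a Mettl3 knockout, the Rx:GFP reporter and a Dox-inducible HA-METTL3 transgene. METTL3 is the enzyme that methylates adenosines in messenger RNA. The 2 untreated libraries (titled EV) received no doxycycline, and the 2 Dox libraries (titled EV+Dox) received 2 µg/ml for 6 days, so the comparison asks what differs when METTL3 is restored. What EV stands for, whether the line is 1 clone, and whether the 2 libraries of a group came from separate cultures is not said, so the p-values measure only the spread between these libraries. The comparison holds doxycycline itself and the restored protein together, and the labels name no group in which they are separated.

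Judged by the FPKM value of a single fragment, the libraries held about 32400000 and 34900000 fragments (untreated) and 31700000 and 32700000 (Dox). Mettl3 itself was at 40.33 and 37.98 FPKM untreated and 45.20 and 46.37 with Dox (log2 fold change 0.22, adjusted p = 0.122). The row does not separate knockout transcripts from transgene transcripts, so it is no check of the labels. The organoids differed widely in cell type markers. Summed FPKM of 8 retinal progenitor markers was 164.4 and 152.1 untreated against 845.1 and 982.7 with Dox, and 7 of the 8 rose, among them Rax, an eye-field transcription factor, from 1.12 and 0.82 to 201.14 and 227.98 FPKM. Summed levels of 6 markers of the dorsal midline of the forebrain went the other way, from 345.1 and 340.3 to 26.0 and 23.4, and all 6 fell. In such bulk samples a change in the share of cells of a type and a change in RNA per cell cannot be told apart, and the part of cell composition in the results below was not tested.

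Among the 34 tested imprinted genes, 10 rose and 7 fell with Dox at an adjusted p below 0.05 (limma, Benjamini-Hochberg over all 13931 genes). That is 17 of 34 genes, where 1297 of all tested genes, 9.31%, were called, 4.44% higher and 4.87% lower. The members were chosen with earlier results of these data known, so their share is not that of an independently fixed list. The median log2 fold change of the 34 was 0.11, beside -0.0042 over all tested genes, and their median absolute log2 fold change was 0.46, beside 0.13. Dox libraries lay above both untreated libraries for 18 of the 34, below both for 10, and overlapped for 6. The 10 higher genes include Grb10, which reached the level needed for testing only through its Dox libraries and so had to be higher. The genes of one cluster are neighbours that can share control elements, and 29 of the 42 listed genes fall in 9 clusters with more than 1 member, so they are not independent observations. With any 1 library left out, 8 members were called higher and 1 to 2 lower, and without the filter on low values 2 were called lower.

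The parental classes are from the literature, where several genes are maternally expressed in some tissues only, and the copy expressed here was not measured. Grb10, Gnas, Inpp5f and H13 were not classed, since their expressed copy depends on isoform or tissue. Genes of both parental classes were called in both directions. Of 20 tested genes classed as paternally expressed, 6 rose and 4 fell (median log2 fold change 0.11). Of 10 classed as maternally expressed, 3 rose and 3 fell (median 0.17). In the 3 clusters with exactly 2 members in the table, H19 with Igf2, Igf2r with Airn, and Mest with Copg2, both partners were called and in opposite directions. At H19-Igf2 and Igf2r-Airn the maternal transcript rose and the paternal one fell, and at Mest the paternal transcript rose and the maternal one fell. The number of genes called lower went down to 1 to 2 in the paternal class and 0 to 1 in the maternal class with a library left out.

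**Figure D1:**
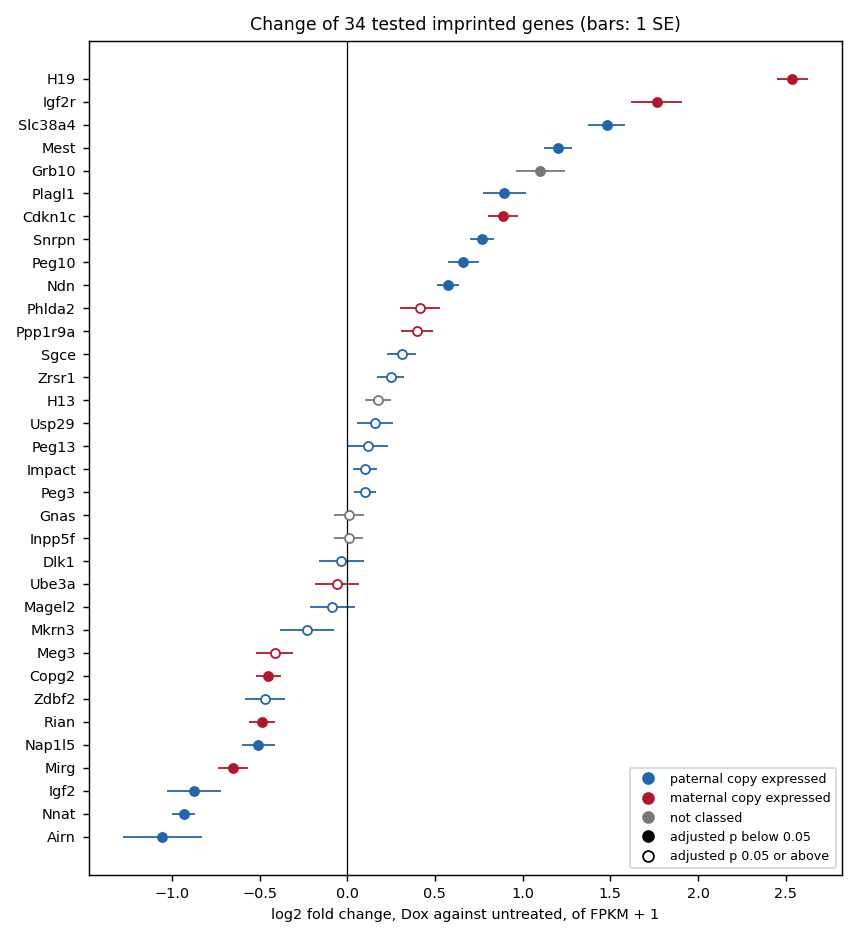
Log2 fold change of each tested imprinted gene, Dox against untreated, on the log2(FPKM + 1) scale with its standard error. Colours give the parental class, with genes not classed in grey. H19 at 2.54 and Igf2r at 1.76 lie farthest above 0, and Airn at -1.05 and Nnat at -0.93 lie farthest below.

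The H19-Igf2 cluster showed the widest separation of partners. H19 is a noncoding RNA of the maternal copy, and Igf2 encodes a fetal growth factor made from the paternal copy, both driven by enhancers they share. H19 (ENSMUSG00000000031, GRCm38 chr7:142575529-142578143, minus strand, a long noncoding RNA gene) was at 93.22 and 80.81 FPKM untreated and at 498.19 and 519.58 with Dox. The Dox libraries were far above both untreated ones, a 5.85-fold rise from 87.0 ± 8.78 to 508.9 ± 15.1 (SD, n = 2 each). In limma its log2 fold change was 2.54 (SE 0.0901, adjusted p = 1.17e-04). By level it moved from rank 1318 and 1579 among all rows to rank 235 and 206. Igf2 (GRCm38 chr7:142650766-142666816, minus strand) was at 20.26 and 16.61 untreated and at 10.92 and 8.34 with Dox, without overlap, and fell by 0.87 on the log2 scale (SE 0.154, adjusted p = 0.0253). H19 thus stood at 4.60 and 4.87 times the level of Igf2 without Dox and at 45.6 and 62.3 times with it. The Igf2 call was lost when any 1 of the 4 libraries was left out (adjusted p 0.0557 to 0.132), while H19 kept its call in all 14 alternatives.

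The H19 transcript also carries the hairpin of a microRNA, shown because the RNA that rose is its precursor.
miR-675-5p: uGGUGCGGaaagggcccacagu
miR-675-3p: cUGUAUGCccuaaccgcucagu
Capitals mark the seed, bases 2 to 8, in the mature RefSeq sequences, and the seeds of the 2 arms differ. Poly(A) selection does not capture mature microRNAs, and the hairpin's own row was listed at 0 in all 4 libraries, so the level of the microRNA was not measured.

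Igf2r encodes the receptor that carries IGF2 to the lysosome for breakdown, and it is expressed from the maternal copy. Airn is a noncoding RNA of the paternal copy that starts inside Igf2r and runs antisense across the Igf2r promoter. Igf2r (GRCm38 chr17:12682406-12769664, minus strand) was at 2.26 and 2.07 FPKM untreated and at 8.53 and 11.13 with Dox. It rose 4.54-fold (log2 fold change 1.76, SE 0.146, adjusted p = 0.0017), and its log2 fold change was 1.04 with a pseudocount of 5. Airn (GRCm38 chr17:12741311-12860136, plus strand) was at 9.90 and 12.03 untreated and at 6.16 and 3.60 with Dox. The groups did not overlap for either gene, and Airn fell by 1.05 on the log2 scale (SE 0.226, adjusted p = 0.0472). The order of the partners turned over: Igf2r stood at 0.228 and 0.172 times the level of Airn untreated, and at 1.38 and 3.09 times with Dox. Although Airn runs through Igf2r, no exon of either overlaps an exon of another gene in the annotation used here. The Airn value lies close to the threshold, and its call was lost without untreated library 1 or 2 or Dox library 2 (adjusted p 0.122, 0.217 and 0.121).

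The start sites of this antisense pair are shown because their transcripts moved in opposite directions and one runs across the other's promoter. Each RefSeq window on GRCm38 holds 250 bases before the start and 50 after it, 5′ to 3′ on the gene's own strand, with any copy of the hexamer TGCCGC on either strand in capitals. TGCCGC is the sequence read, when methylated, by ZFP57, a zinc finger protein that keeps imprints after fertilization. The Igf2r window is chr17:12769657-12769956, minus strand, and the Airn window is chr17:12741061-12741360, plus strand.
Igf2r promoter: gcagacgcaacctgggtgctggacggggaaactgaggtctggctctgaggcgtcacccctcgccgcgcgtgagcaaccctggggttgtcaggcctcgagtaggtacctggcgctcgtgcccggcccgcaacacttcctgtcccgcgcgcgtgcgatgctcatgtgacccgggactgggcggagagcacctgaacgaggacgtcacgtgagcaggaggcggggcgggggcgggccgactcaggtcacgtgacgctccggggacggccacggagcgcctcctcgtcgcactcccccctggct
Airn promoter: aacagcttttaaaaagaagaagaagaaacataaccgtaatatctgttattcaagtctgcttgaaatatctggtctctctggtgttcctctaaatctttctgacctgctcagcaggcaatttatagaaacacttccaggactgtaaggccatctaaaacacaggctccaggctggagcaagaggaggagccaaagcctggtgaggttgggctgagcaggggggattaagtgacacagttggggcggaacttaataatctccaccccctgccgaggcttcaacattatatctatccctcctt
Neither window held the hexamer. The Igf2r window held 34 CpG dinucleotides and the Airn window 3, beside a median of 21 in the windows of all tested genes.

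Igf2 and Igf2r act on the same pathway, in which IGF2 and IGF1 bind receptors at the cell surface and binding proteins hold or release the ligand. Of 24 listed genes of that pathway, imprinted ones included, 17 were tested, 6 rose and 4 fell, beside 9.31% called over all genes. Fewer were called higher with a library left out. The called ones include Igf2, Igf2r and Grb10, already counted above, and Grb10 reached the level needed for testing only through its Dox libraries. Igfbp4, a secreted IGF-binding protein, was at 28.23 and 26.39 FPKM untreated and at 100.13 and 111.48 with Dox (log2 fold change 1.91, adjusted p = 1.83e-04). Igfbp3, another binding protein, went from 7.62 and 6.73 to 2.01 and 2.06 (-1.43, adjusted p = 0.00145). Among the rest, named after their values were seen, Igfbp5 (log2 fold change 1.00), Irs4 (0.78), an insulin receptor substrate, and the RNA-binding protein gene Igf2bp2 (0.57) rose, and Igfbp2 (-0.72) and Irs1 (-1.05) fell. Igf1r, the receptor through which IGF2 signals growth, was at 8.32 and 7.62 against 7.94 and 9.16, with overlapping groups (log2 fold change 0.09, adjusted p = 0.679). The Igf2 transcript stood at 8.96 and 8.02 times the level of Igf2r untreated and at 1.28 and 0.749 times with Dox.

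Grb10, an adaptor that binds the insulin and IGF1 receptors and restrains growth, was at 0.54 and 0.35 FPKM untreated and at 2.03 and 2.16 with Dox. Both Dox libraries were above both untreated ones (log2 fold change 1.10, SE 0.142, adjusted p = 0.00833). Its call was lost without Dox library 1 or 2 (adjusted p 0.0571 and 0.0688), and its log2 fold change was 2.03 with a pseudocount of 0.1 and 0.38 with a pseudocount of 5. Slc38a4, a transporter of neutral amino acids expressed from the paternal copy, was at 6.14 and 7.07 untreated and at 21.37 and 19.02 with Dox. It rose 3.06-fold (log2 fold change 1.48, SE 0.107, adjusted p = 0.00103) and kept its call in all 14 alternatives.

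**Figure D2:**
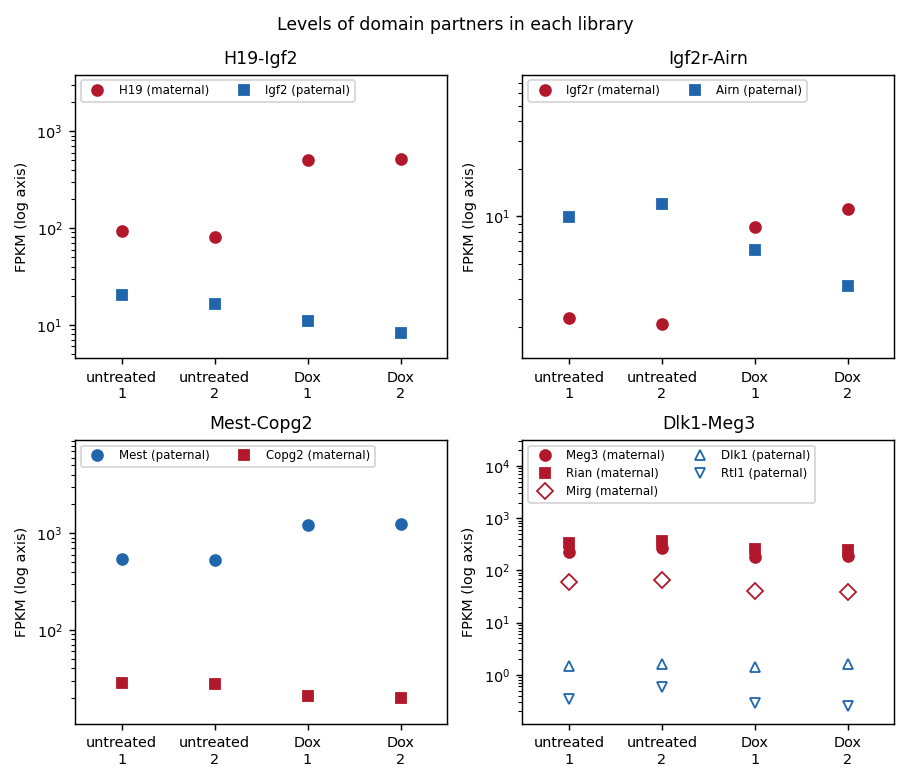
FPKM of the members of 4 clusters in each of the 4 libraries, on log axes, with maternally expressed genes in red and paternally expressed genes in blue. H19 and Igf2 move apart, Igf2r and Airn exchange places, Mest and Copg2 move apart, and the 3 noncoding RNAs of the Dlk1-Meg3 cluster lie lower in both Dox libraries.

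Mest encodes a hydrolase-like protein of embryonic mesoderm and brain and was the most abundant imprinted transcript in the Dox libraries. It was at 535.11 and 530.68 FPKM untreated and at 1208.72 and 1245.89 with Dox. The libraries of a group were close together and the groups far apart, a 2.30-fold rise (log2 fold change 1.20, SE 0.0820, adjusted p = 8.86e-04). Its rank by level moved from 209 and 222 to 116 and 94. Copg2, a subunit of the coatomer of transport vesicles on the opposite strand, was at 28.40 and 27.55 untreated and at 20.58 and 19.83 with Dox, and fell by 0.45 on the log2 scale (SE 0.0704, adjusted p = 0.0167). The last exons of Mest and Copg2 overlap on opposite strands and the strand setting of the counting is not given in the sources used here, so reads in that stretch cannot be assigned. Copg2 lost its call when any 1 library was left out (adjusted p 0.0766 to 0.135) and after rescaling to a common sum (0.0611).

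Plagl1, a zinc finger transcription factor of the paternal copy that restrains the cell cycle, was at 41.08 and 43.10 FPKM untreated and at 69.94 and 89.42 with Dox. The groups did not overlap (log2 fold change 0.89, SE 0.123, adjusted p = 0.0108), and the call was lost without untreated library 1 or 2 (adjusted p 0.0722 and 0.0588). Cdkn1c, an inhibitor of cyclin-dependent kinases expressed from the maternal copy, was at 16.90 and 15.62 untreated and at 29.40 and 32.52 with Dox. It rose (log2 fold change 0.89, SE 0.0867, adjusted p = 0.00304) and kept its call in all 14 alternatives. Cdkn1c shares its cluster with Phlda2, a placental growth regulator, which was at 2.14 and 2.08 against 3.28 and 3.01 (0.41, adjusted p = 0.0973). The other listed members there, the noncoding Kcnq1ot1 and the transcription factor gene Ascl2, stayed below the level needed for testing.

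The promoters of Mest and Plagl1 are shown because both genes are paternally expressed, both rose, and both windows shown hold copies of the ZFP57 hexamer (capitals). The Mest window shown is chr6:30737800-30738099, plus strand, with 2 copies and 17 CpG dinucleotides. Another Mest window, chr6:30733256-30733555, held 0 copies and 8 CpG dinucleotides. A further one, chr6:30737803-30738102, nearly coincides with the window shown and holds the same 2 copies. Such overlapping windows are counted separately below. The Plagl1 window is chr10:13090582-13090881, plus strand, with 1 copy.
Mest promoter: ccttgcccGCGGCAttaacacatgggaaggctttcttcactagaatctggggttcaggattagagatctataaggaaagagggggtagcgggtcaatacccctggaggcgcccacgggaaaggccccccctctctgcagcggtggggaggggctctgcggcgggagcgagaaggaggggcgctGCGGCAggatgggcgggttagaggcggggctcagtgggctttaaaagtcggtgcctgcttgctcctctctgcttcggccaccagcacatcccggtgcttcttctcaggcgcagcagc
Plagl1 promoter: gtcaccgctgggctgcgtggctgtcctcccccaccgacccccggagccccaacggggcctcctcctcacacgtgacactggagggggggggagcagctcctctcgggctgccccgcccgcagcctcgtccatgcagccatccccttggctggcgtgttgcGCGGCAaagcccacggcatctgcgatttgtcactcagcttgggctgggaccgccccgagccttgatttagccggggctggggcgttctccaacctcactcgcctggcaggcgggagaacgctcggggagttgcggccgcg
The microRNA hairpin inside Mest gives 2 arms, shown for the same reason as those of H19, with the seed in capitals.
miR-335-5p: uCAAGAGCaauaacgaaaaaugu
miR-335-3p: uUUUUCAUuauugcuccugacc
As for H19, the row of this hairpin was listed at 0 in all 4 libraries, and the mature microRNAs were not measured.

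Nnat and Nap1l5, both paternally expressed, both lying within an intron of another gene and both fallen with Dox, carry the hexamer as well. Nnat encodes neuronatin, a small membrane protein of the endoplasmic reticulum in developing neural tissue, and went from 213.94 and 219.43 FPKM to 114.84 and 111.13. The groups were far apart and Nnat fell by 0.93 on the log2 scale (SE 0.0641, adjusted p = 8.96e-04), a call kept in all 14 alternatives. Nap1l5, of the nucleosome assembly protein family, was at 9.73 and 10.27 untreated and at 6.45 and 7.03 with Dox, and fell by 0.51 (SE 0.0948, adjusted p = 0.0305). The Nap1l5 call was lost when any 1 library was left out (adjusted p 0.103 to 0.198), and after rescaling to a common sum (0.0959). The windows are chr2:157559828-157560127, plus strand, with 1 copy for Nnat, and chr6:58907077-58907376, minus strand, with 2 copies for Nap1l5.
Nnat promoter: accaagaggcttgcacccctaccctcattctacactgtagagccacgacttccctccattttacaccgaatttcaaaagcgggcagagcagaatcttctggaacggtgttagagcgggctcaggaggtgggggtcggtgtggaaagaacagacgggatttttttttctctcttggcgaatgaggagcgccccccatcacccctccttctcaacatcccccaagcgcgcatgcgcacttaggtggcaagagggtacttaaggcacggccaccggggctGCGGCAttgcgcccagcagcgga
Nap1l5 promoter: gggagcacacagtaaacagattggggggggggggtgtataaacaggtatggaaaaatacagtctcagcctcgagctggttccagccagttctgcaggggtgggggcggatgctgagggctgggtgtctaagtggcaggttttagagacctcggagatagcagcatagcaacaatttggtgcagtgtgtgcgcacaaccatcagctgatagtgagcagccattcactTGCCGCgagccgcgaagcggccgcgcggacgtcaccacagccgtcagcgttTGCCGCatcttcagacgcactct
Genes that rose and genes that fell thus both held copies. Over all imprinted genes, 12 of 51 windows (23.5%) held TGCCGC on either strand, and these belonged to 11 of the 33 members with a window. The share was 19.8% in 12228 windows of tested genes and 11.6% in 32851 windows in all. A match is a description of the letters in the window and not a measurement of binding.

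At the Dlk1-Meg3 cluster the maternal copy gives a series of noncoding RNAs, and the paternal copy gives the protein-coding genes Dlk1 and Rtl1. Rian, the host of small nucleolar RNAs, was at 339.45 and 367.67 FPKM untreated and at 255.05 and 248.52 with Dox, and fell by 0.49 on the log2 scale (SE 0.0756, adjusted p = 0.0163). Mirg, the host of a microRNA cluster with 14 hairpins in the RefSeq table, was at 58.79 and 66.22 against 41.07 and 37.75, and fell by 0.65 (SE 0.0874, adjusted p = 0.00968). Meg3, the first of the series, was at 225.12 and 272.51 against 181.23 and 190.08. Its Dox libraries also lay below both untreated ones, but the difference did not pass (log2 fold change -0.41, SE 0.106, adjusted p = 0.0789). Rian stood at 1.51 and 1.35 times the level of Meg3 untreated and at 1.41 and 1.31 times with Dox, ranges that overlap, and Mirg at 0.261 and 0.243 times against 0.227 and 0.199 times, without overlap. Dlk1, a transmembrane protein of the Notch ligand family, was low in every library at 1.48 and 1.64 against 1.41 and 1.59 FPKM (-0.03, adjusted p = 0.903). The retrotransposon-derived Rtl1 was lower still, at 0.35 and 0.59 against 0.29 and 0.25, and was not tested. Rian lost its call when any 1 library was left out (adjusted p 0.0816 to 0.171). Mirg lost it without untreated library 2 or either Dox library (0.0567 to 0.0857).

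**Figure D3:**
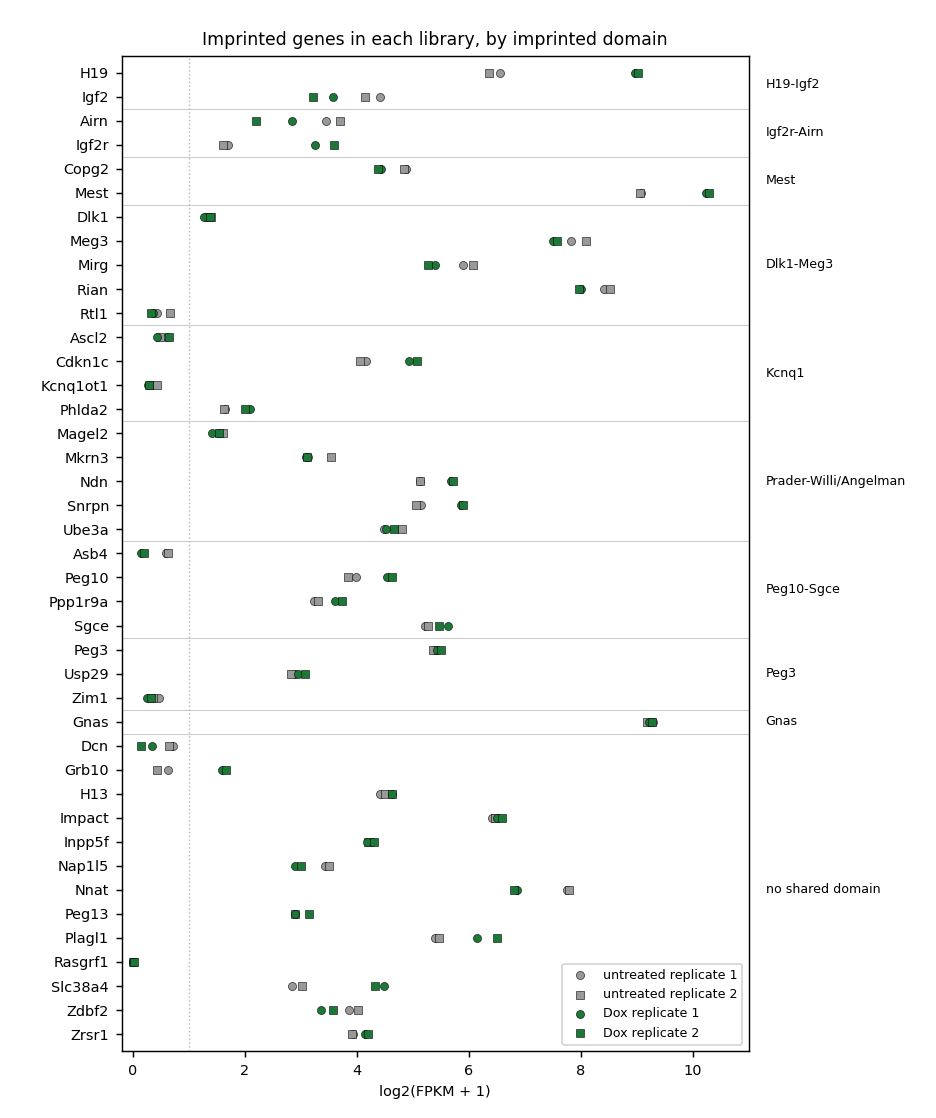
Level of each imprinted gene in the table in each library, as log2(FPKM + 1), with untreated libraries in grey and Dox libraries in green, grouped by cluster, and a dotted line at 1 FPKM. Levels run from Rasgrf1, listed at 0 in 3 of the 4 libraries, to Mest at 1245.89 FPKM.

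In the Prader-Willi and Angelman region, paternally expressed Ndn and Snrpn rose while their neighbours did not pass the test. Ndn, a MAGE family protein of neurons, was at 33.84 and 34.13 FPKM untreated and at 50.55 and 51.51 with Dox (log2 fold change 0.57, SE 0.0629, adjusted p = 0.00473), and lost its call without untreated library 1 (0.0539). Snrpn, a protein of the splicing machinery, was at 34.38 and 32.48 against 56.93 and 58.37 (0.77, SE 0.0673, adjusted p = 0.00209). Snrpn shares exons with Snurf, which was at 43.58 and 37.24 against 41.99 and 69.91, so the division of reads between them is uncertain. The MAGE family gene Magel2 was at 1.87 and 2.06 against 1.67 and 1.92, and the ubiquitin ligase gene Mkrn3 at 7.70 and 10.66 against 7.54 and 7.62. Ube3a, a ubiquitin ligase whose paternal copy is silenced in neurons, was at 21.50 and 26.99 against 21.97 and 24.26, with overlapping groups. Exons of Ube3a overlap other genes on the opposite strand, the long transcript Snhg14 among them, so the Ube3a reads are also uncertain. Adjusted p-values were 0.740 for Magel2, 0.434 for Mkrn3 and 0.822 for Ube3a. Ndn stood at 18.1 and 16.6 times the level of Magel2 untreated and at 30.3 and 26.8 times with Dox.

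In the cluster of Peg10, a retrotransposon-derived gene needed for the placenta, Peg10 was at 14.87 and 13.41 FPKM untreated and at 22.19 and 23.68 with Dox and rose (log2 fold change 0.66, SE 0.0872, adjusted p = 0.00909). It lost its call without untreated library 2 or either Dox library (adjusted p 0.061 to 0.0852). Sgce, which encodes epsilon-sarcoglycan and starts beside Peg10, was at 36.06 and 37.54 against 48.71 and 43.24. Ppp1r9a, the actin-binding neurabin, was at 8.47 and 8.87 against 11.14 and 12.36. Both had Dox libraries above the untreated ones without passing (adjusted p = 0.0844 and 0.0632). Asb4, of the same cluster, had the opposite order at a level too low to be tested, 0.50 and 0.55 against 0.10 and 0.15 FPKM.

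Several other imprinted genes did not pass the test. Gnas, the stimulatory G protein alpha subunit, was at 624.84 and 580.20 FPKM untreated and at 594.50 and 617.97 with Dox, with overlapping groups (log2 fold change 0.01, adjusted p = 0.958). Peg3, a zinc finger protein, was at 40.59 and 40.07 against 42.40 and 44.28 (0.10, adjusted p = 0.418), and its neighbour Usp29, of the deubiquitinase family, at 6.40 and 6.05 against 6.69 and 7.45 (0.16, adjusted p = 0.417). Impact, a regulator of translation, was at 84.29 and 87.67 against 89.32 and 95.57 (adjusted p = 0.438). The inositol phosphatase gene Inpp5f (18.21 and 17.43 against 17.07 and 18.82) and the noncoding Peg13 (6.47 and 6.46 against 6.42 and 7.83) had overlapping groups. The signal peptide peptidase gene H13 was at 20.36 and 21.66 against 23.85 and 23.77, and the splicing factor-related Zrsr1 at 14.33 and 14.09 against 16.67 and 17.47. Zdbf2 was at 13.47 and 15.32 against 9.31 and 10.97, its Dox libraries below the untreated ones (-0.47, adjusted p = 0.0698). For none of these does a p above the threshold show that the levels are equal.

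The 7 members in the table that stayed below 1 FPKM were Rtl1, Zim1, Asb4, Kcnq1ot1, Ascl2, Rasgrf1 and Dcn. In 5 of them both Dox libraries lay below both untreated ones and in 2 the groups overlapped. The lowest was Rasgrf1, listed at 0 in both untreated libraries and at 0 and 0.01 with Dox. Decorin, Dcn, a matrix protein of mesenchyme, was at 0.65 and 0.57 against 0.27 and 0.10. The gene that the reference names call Nespas (ENSMUSG00000086537) stands in the table as Gnasas1, at 0.78 and 1.36 against 0.73 and 0.89. Exons of 20 of the 41 members overlap another gene in the annotation, 10 of the 17 called genes among them. For Igf2 the overlapping genes are Igf2os on the opposite strand and the predicted gene Gm49394 on the same one, so its reads are also uncertain. Of the 16 tested members without such an overlap, 5 rose and 2 fell.

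**Figure D4:**
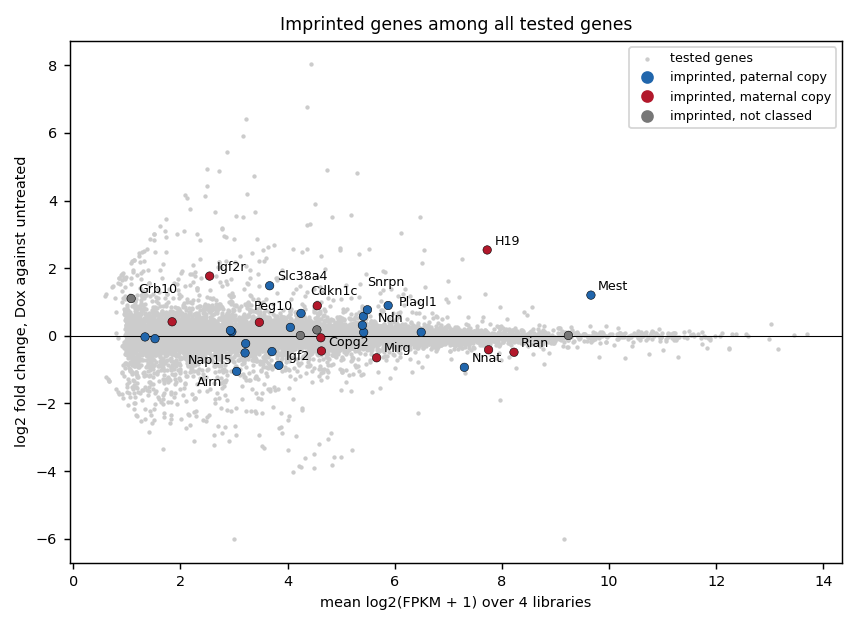
Log2 fold change, Dox against untreated, against mean log2(FPKM + 1) for all 13931 tested genes in grey, with the 34 tested imprinted genes coloured by parental copy and the called ones named. H19 at 2.54 and Mest at 1.20 lie to the right at high levels, and Igf2r at 1.76 lies among genes of low level.

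Of a further list of 45 imprinted genes, 22 were tested, 3 rose and 1 fell, beside 4.44% higher and 4.87% lower over all genes. Fewer were called with a library left out. Zfp264, a zinc finger gene of the Peg3 cluster, went from 3.72 and 3.49 to 7.55 and 7.95 FPKM (log2 fold change 0.93, adjusted p = 0.00444). Phactr2, a phosphatase and actin regulator beside Plagl1, went from 7.63 and 6.81 to 12.08 and 14.18 (0.78, adjusted p = 0.0131). Ddc, the decarboxylase of dopamine and serotonin synthesis beside Grb10, went from 0.77 and 0.81 to 1.91 and 2.46 (0.83, adjusted p = 0.0254), and like Grb10 it reached the level needed for testing only through the Dox libraries. Gatm, a creatine synthesis enzyme, went from 11.12 and 11.11 to 7.06 and 6.84 (-0.61, adjusted p = 0.0116).

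The imprint maintenance list of 21 genes holds factors that lay down, keep, read or remove imprint marks, Tet1, Tet2, Tet3 and Ctcf included. Of these 21, 20 were tested, 3 rose and none fell in the limma fit, beside 9.31% called over all genes. At an unadjusted p below 0.05 in that fit, 3 were higher and 1 was lower, and limma's robust option called 1 lower. Dnmt3b, a de novo DNA methyltransferase, was at 15.29 and 13.30 FPKM untreated and at 24.38 and 26.11 with Dox (log2 fold change 0.78, adjusted p = 0.00674). Dnmt3a, the other de novo enzyme, was at 32.65 and 28.84 against 41.67 and 45.62 (0.49, adjusted p = 0.029). Dnmt3l, their cofactor without catalytic activity, was at 3.37 and 3.33 against 8.33 and 6.24 (0.92, adjusted p = 0.0182). Dppa3, which shields methylation from removal in the early embryo, had a larger difference than Dnmt3a, at 4.42 and 5.42 against 3.18 and 2.21 without overlap, but did not pass (log2 fold change -0.69, adjusted p = 0.0734). Zfp57 was at 32.87 and 38.35 against 38.90 and 45.31 (log2 fold change 0.24, adjusted p = 0.277), and its partner Trim28 at 263.83 and 243.36 against 270.06 and 299.27 (0.324). Dnmt1, which copies methylation at replication, was at 72.85 and 66.50 against 67.16 and 75.42, with overlapping groups (0.865). With a library left out, 0 to 1 of the listed genes were called higher. DNA methylation itself was not measured.

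Markers of other cell types that the organoids could hold were followed in the same libraries. Of the mesenchyme markers 7 were tested and 2 rose, Col1a2 and Pdgfra, while the summed level was 97.6 and 92.4 FPKM untreated and 106.6 and 80.1 with Dox. Most of that sum is Acta2, an actin of smooth muscle, at 80.69 and 77.83 against 78.44 and 55.21, and the other 9 markers together were at 16.91 and 14.61 against 28.12 and 24.84, without overlap. Most of that rise is Col1a2, a fibrillar collagen, which went from 2.46 and 1.93 to 12.21 and 12.02. Pdgfra, Pdgfrb and Twist1 also had Dox libraries above the untreated ones. Prrx1, Lum and Postn had them below, and Col1a1 and Col3a1 overlapped, so the markers did not move as a group. Neuron markers summed to 145.1 and 143.5 against 83.8 and 87.9, with 4 of 5 tested lower and 1 higher. The higher one, Syt1, reached the level needed for testing only through the Dox libraries and Elavl3, among the lower, only through the untreated ones, so their directions were fixed by that choice. Trophoblast markers summed to 13.9 and 13.5 against 5.61 and 5.81, most of it Tfap2c, a gene also expressed outside the trophoblast, which fell from 12.09 and 12.14 to 2.61 and 3.18. The defining genes Cdx2 and Elf5 were at or below 0.06 in every library. Hand1 (0.28 and 0.14 against 1.60 and 0.95) and Gata3 (0.21 and 0.18 against 0.86 and 0.97) had Dox libraries above the untreated ones. Eomes (0.77 and 0.58 against 0.14 and 0.11) had them below, and Ascl2 overlapped. Primitive endoderm markers summed to 9.22 and 9.08 against 9.97 and 9.86, nearly all of it Dab2. The others were at or below 0.63 each and summed to 0.55 and 0.52 against 1.78 and 1.30. Summed pluripotency markers were at 68.6 and 72.0 against 75.2 and 51.4. The part of these cell types in the levels of the imprinted genes was not tested.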

How the data were processed

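Paired-end, poly(A)-selected RNA-seq of 4 organoid libraries (2 untreated, 2 Dox, all with the same batch label) was analysed from a single deposited gene table. Its values are FPKM made by the authors; per the submitters' processing notes, STAR, Cuffdiff and mm10 were used, and versions, annotation release and strand setting are not given in the sources used here. The members and gene lists were chosen with earlier results of these data known. Values were taken as log2(FPKM + 1), rows with a mean under 1 FPKM were left out, and the 2 groups were compared with limma 3.58.1 in R 4.3.3 (eBayes with trend, prior degrees of freedom 3.502, Benjamini-Hochberg over 13931 genes, threshold 0.05). Log2 fold changes are on that scale, which understates those of low genes, while a value written as N-fold is the ratio of the group means of FPKM itself. An exact permutation test of 2 against 2 libraries cannot go below a two-sided p of 0.333. Every tested member is described. In the IGF pathway list the genes with the largest changes were named by rule, and others after their values were seen. Coordinates and exon overlaps are from GENCODE M21 (GRCm38, the same assembly as mm10). Promoter and microRNA sequences are from RefSeq on GRCm38.p6, with 33 of 42 members having a promoter window. Depth was estimated from the steps between low FPKM values, of which 89.4% to 90.7% came out as whole fragments within 0.2, so depths are approximate and a count test was not run. Alternatives were pseudocounts of 0.1 and 5, no filter, a minimum of 5 FPKM, rescaling to a common sum, median centring, quantile normalization, eBayes without trend or with the robust option, a replicate block, leaving out each library (the lone library is then assumed to vary like the other group), and, chosen after seeing the data, only members without exon overlap.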

Additional observations from a re-analysis of the deposited data

How the results depend on the processing

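Of the 17 called imprinted genes, 7 kept their call in all 14 alternatives (H19, Igf2r, Mest, Cdkn1c, Snrpn, Nnat and Slc38a4), and leaving out 1 library at a time kept 9 to 10 of them. Over all genes, 619 higher and 678 lower calls became 336 and 409 without the filter, 408 and 413 with a minimum of 5 FPKM, and 262 to 320 and 331 to 377 with a library left out, where fewer samples were fitted. Imprinted genes called lower numbered 2 without the filter and 1 to 2 with a library left out. Members without exon overlap, fewer genes by construction, gave 5 higher and 2 lower. Paternally expressed genes called lower went from 4 to 1 without the filter and to 1 to 2 with a library left out. Maternally expressed genes called lower went from 3 to 1 and to 0 to 1. In the further imprinted list, the filter left off gave 1 higher and 2 lower, and left-out libraries gave 0 to 2 higher and 0 lower. Imprint maintenance genes called higher numbered 0 without the filter and 0 to 1 with a library left out, and the robust option called 1 lower. IGF pathway genes called higher numbered 3 to 5 with a library left out, and 2 were called lower with a minimum of 5 FPKM. The 5 uncalled genes near 0 turned sign with a library left out: Dlk1 (-0.0864 to 0.0175), Peg13 (-0.0087 to 0.24), Ube3a (-0.22 to 0.10), Gnas (-0.0438 to 0.0630) and Inpp5f (-0.0584 to 0.0750, and -0.0024 after quantile normalization). The causes were not tested. In limma, Airn also lost its call with a pseudocount of 0.1 (adjusted p = 0.0515), median centring (0.0558), quantile normalization (0.0578) and no trend (0.0647). Without the filter, calls were lost for Airn (adjusted p = 0.189), Igf2 (0.133), Nap1l5 (0.0911) and Plagl1 (0.0892). Rian (0.0681), Mirg (0.0672) and Peg10 (0.0553) lost theirs in that setting too.

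Over all tested genes, same-numbered libraries did not deviate together (correlation -0.0435). A single value over all genes cannot exclude a pairing that touches only some of them. Blocking on the replicate number gave 532 higher and 602 lower calls over all genes and 10 and 5 among imprinted genes, Rian (adjusted p = 0.0649) and Nap1l5 (0.0573) no longer passing. The block gave 6 and 3 paternally and 3 and 2 maternally expressed genes, 3 and 1 further imprinted, 3 and 0 imprint maintenance, and 6 and 4 IGF pathway genes. With 2 libraries a group, differences near the threshold are not settled at this depth of replication, and values near the level of 3 fragments carry large counting error.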

Other observations

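Other transcripts of the same clusters, named after their values were seen, are given as values. Dio3, an enzyme that inactivates thyroid hormone at the far end of the Dlk1-Meg3 cluster, was at 0.10 and 0.17 FPKM untreated and at 1.90 and 1.27 with Dox. Dio3os, its antisense transcript, was at 0.03 and 0.00 against 0.77 and 1.01, and with no stated strand setting the reads of such a pair cannot be told apart. Both were below the level needed for testing, and both had Dox libraries above the untreated ones, the opposite order from Rian and Mirg in that cluster. Snhg14, the long transcript downstream of Snrpn, was at 7.09 and 11.03 against 12.11 and 14.65 (log2 fold change 0.54, adjusted p = 0.192 in limma). Igf2os, antisense to Igf2, was at 0.73 and 0.22 against 0.06 and 0.12.

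The letters GGACT, a common core of the site that METTL3 methylates, occurred at a median of 0.98 per kilobase of longest transcript in the 34 tested imprinted genes and 1.00 in 13825 tested genes with a transcript in the annotation. Among called genes that rose, the value ran from 0 in Snrpn, 0.254 in Slc38a4 and 0.375 in Mest to 2.62 in H19. Among those that fell, it ran from 0 in Nnat to 1.57 in Mirg.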
